A study of Rattus norvegicus with 5 samples.

Results

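Keratins and vimentin are the proteins of the cytoplasmic intermediate filaments of epithelial and mesenchymal cells, and the transcripts of 10 of these genes were followed here in rat thyroid cells grown flat or as follicles. The genes were Krt5, Krt7, Krt8, Krt14, Krt15, Krt17, Krt18, Krt19, Krt20 and Vim. They were taken by name, by matching the RefSeq accession of each array probe to the rat gene symbol, and all 10 were found among 15154 genes with a symbol, each with 1 probe. FRT cells, a polarized epithelial line derived from the thyroid of the Fischer rat, were cultured in medium with serum and a hormone mixture either as confluent 2D monolayers or embedded in Matrigel, a basement membrane extract, where they formed 3D follicles, and RNA was isolated on the fifth day. RNA of 4 3D cultures was labelled with Cy5, each on its own 2-colour array, against Cy3-labelled RNA pooled from 4 2D cultures. On 1 further array the dyes were swapped between that 2D pool and a pool of the 3D cultures. A single cell line was used, so the cultures are repeats of 1 genotype, and the spread between 2D cultures was not measured.

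Intermediate filaments are the part of the cytoskeleton that carries mechanical load. Keratins of type I and type II pair with each other to build filaments that reach desmosomes and hemidesmosomes, whereas vimentin, of type III, assembles alone and is typical of mesenchymal cells and of many epithelial cells in culture. The type II keratins here are Krt5, Krt7 and Krt8, and the type I keratins are Krt14, Krt15, Krt17, Krt18, Krt19 and Krt20. Simple epithelia, such as that of the thyroid follicle, are known for Krt8 and Krt18, often with Krt7 and Krt19, while Krt5, Krt14, Krt15 and Krt17 are keratins of basal and stratified epithelia.

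The promoter sequences of Krt20, whose transcript changed most, and of the partners Krt8 and Krt18, whose transcripts did not pass the test, are shown for comparison. They come from RefSeq on the rat build GRCr8, in which 5 of the 10 genes had a promoter entry, and each run holds the 250 bases before the gene start in the direction of the gene. Capitals mark matches to the GC box GGGCGG, the AP-1 motif TGANTCA, the TATA box TATAAA and the CCAAT box, searched on both strands.
Krt20 (chr10:84890286-84890535, minus strand): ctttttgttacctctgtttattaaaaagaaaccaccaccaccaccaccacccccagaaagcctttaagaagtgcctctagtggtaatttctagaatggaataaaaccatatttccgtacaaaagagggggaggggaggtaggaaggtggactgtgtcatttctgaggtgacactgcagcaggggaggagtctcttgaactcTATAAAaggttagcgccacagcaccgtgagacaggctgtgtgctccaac
Krt8 (chr7:135010340-135010589, minus strand): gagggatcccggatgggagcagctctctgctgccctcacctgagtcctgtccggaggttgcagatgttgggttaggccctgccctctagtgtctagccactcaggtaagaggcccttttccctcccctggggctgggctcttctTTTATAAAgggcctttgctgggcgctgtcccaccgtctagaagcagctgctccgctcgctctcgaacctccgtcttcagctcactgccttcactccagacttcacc
Krt18 (chr7:135035918-135036167, plus strand): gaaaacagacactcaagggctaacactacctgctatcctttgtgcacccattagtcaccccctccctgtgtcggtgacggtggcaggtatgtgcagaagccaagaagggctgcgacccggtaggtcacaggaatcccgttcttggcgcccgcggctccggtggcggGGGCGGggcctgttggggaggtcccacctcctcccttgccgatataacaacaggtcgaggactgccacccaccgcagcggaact

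The Krt20 promoter held 1 match to the TATA box, 49 to 44 bases before the start. Krt8 held overlapping matches to it on both strands, 106 to 99 bases before the start. Krt18 held 1 match to the GC box and no exact match to TATAAA. Only exact letters were counted, and whether a match acts in the promoter was not tested. Among 33469 rat promoters of the same length, 12.9% held a TATA box, 30.5% a GC box, 34% a CCAAT box and 6.34% an AP-1 motif. None of the 5 promoters with an entry, those of Krt5 and Vim included, held an AP-1 motif in this window. The GC content was 47.2% for Krt20, 60% for Krt8 and 62% for Krt18, against a median of 51.2%. On that build Krt8 and Krt18 lie next to each other on chromosome 7, with 1 gene that encodes no protein between them, although Krt18 is of type I and the other type I members lie on chromosome 10. Krt15 and Krt19 are immediate neighbours on chromosome 10, with 0 genes between them.

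Each array carried 30367 probes, and between 47.1% and 50.9% of them stood well above background with 3D RNA and between 45% and 50.1% with 2D RNA. Cy5 was the brighter channel on every array, with a median spot signal of 103 to 117.5 against 47 to 54 for Cy3. Log2 ratios correlated across genes with r from 0.871 to 0.946 between replicate arrays and from 0.734 to 0.765 between these and the swapped array. Krt8 and Vim were each spotted 10 times per array and the other members 2 times. Epithelial markers were present, with Epcam, Cdh1 and Cdh16 well above background in both conditions on all 5 arrays, while the thyroid hormone precursor gene Tg was not on any array.

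Among the members, 3 of 10 passed the test, with Krt15 and Krt19 higher and Krt20 lower in 3D cultures. The test was a linear model in limma of the log2 ratio of 3D over 2D against 0 over the 5 arrays, with Benjamini-Hochberg adjustment over all 15154 genes at an FDR below 0.01. Over all genes 25.9% passed, 14.4% higher and 11.5% lower, whereas with median centring in place of loess 7 genes passed, all of them higher, and 0 members did. The share of the members was therefore close to that of all genes. When every probe of the array was tested in place of 1 probe per gene, 22% passed and the same 3 of 10 member probes did. The 3D and 2D signals of the 5 arrays did not overlap for 3 members, again Krt15, Krt19 and Krt20, as they did not for 23.8% of all genes. The median log2 ratio of the 10 members was -0.03, against 0.00 for all genes. The 2D side was a single pool, and the swapped array repeated the same cultures, so that the 5 arrays held 4 distinct 3D cultures. In bulk RNA, fewer cells that express a gene and less of its RNA per cell cannot be told apart.

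**Figure D1:**
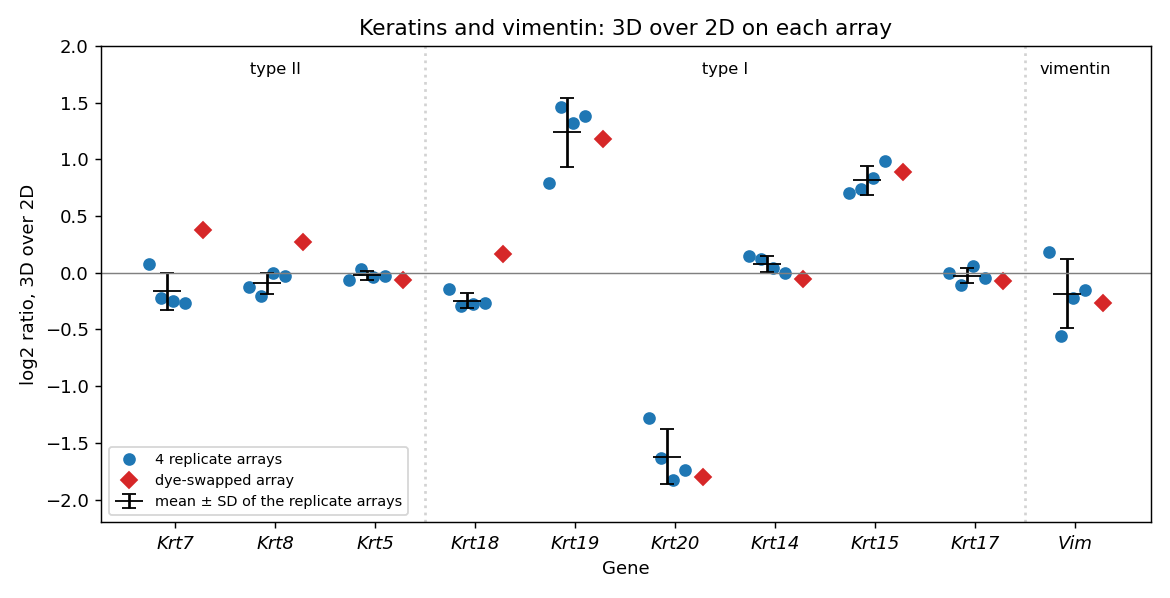
Log2 ratio of 3D over 2D (vertical axis) of the 10 genes by array. Points in blue stand for the 4 replicate cultures in the order of their numbers, black bars for their mean ± SD, and red diamonds for the dye-swapped array. Krt20 lies at or below -1.28 and Krt15 and Krt19 at or above 0.70 on every array, and for Krt7, Krt8 and Krt18 the diamond lies above 0 while the mean of the points lies below it.

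Krt20, a type I keratin known from intestinal and urothelial surface cells, fell the most. Its log2 normalized signal in 3D RNA was 10.70, 10.50, 10.39 and 10.48 on the arrays of replicates 1 to 4 and 10.24 on the swapped array, and in the 2D pool it was 11.98, 12.14, 12.22 and 12.22, and 12.04 on the swapped array. All 3D signals lay below all 2D signals, with a gap of 1.28 on the log2 scale. The log2 ratio was -1.62 ± 0.24 (SD, n = 4) over the replicates, and the swapped array gave -1.80. In the fit it was -1.66 (standard error 0.08, limma adjusted p = 3.17e-07), a level 3.15-fold lower in 3D. Replicate 1 fell the least, with -1.28 against -1.63 to -1.83 in the others. Its change was larger in size than that of 99.5% of all genes. With a term for the dye it was -1.71 (limma adjusted p = 1.1e-06), and 26% of all genes passed in that fit.

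Krt19, a type I keratin of simple and ductal epithelia that has almost no tail domain, was 2.34-fold higher in 3D cultures. Its log2 normalized signal was 7.62, 8.41, 8.25 and 8.40 in 3D replicates 1 to 4 and 8.04 in the 3D pool of the swapped array, against 6.83, 6.95, 6.93, 7.02 and 6.86 in the 2D pool on the same arrays. The lowest 3D signal, that of replicate 1, still lay 0.60 above the highest 2D signal. The log2 ratio was 1.24 ± 0.30 (SD, n = 4) over the replicates, 1.18 with dyes swapped and 1.23 in the fit (standard error 0.09, limma adjusted p = 4.21e-06). Replicate 1, at 0.79, stood below the 1.32 to 1.46 of the others. With a normexp offset of 0 in place of 50 the log2 ratio was 1.84, and with the processed signals of the scanner software 2.12, both larger than in the fit. These settings change the background correction and, in the second, the dye normalization too. In the 2D pool the raw median signal of Krt19 was dim, at 54.75 to 61.25 in Cy3 on the replicate arrays, against array medians of 47 to 52.

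Krt15, a type I keratin of basal keratinocytes, was well above background on all 5 arrays in 3D RNA and on 0 of 5 in 2D RNA. Its log2 normalized signal in 3D was 6.86, 6.92, 7.21 and 7.29 in replicates 1 to 4 and 6.79 in the pool, and in 2D it was 6.16, 6.18, 6.38, 6.30 and 5.90. The signals of the conditions did not overlap and lay 0.41 apart. Because the 2D signal was not well above background, only a bound on the mean fold can be given, which was 1.73-fold higher in 3D. This bound allows for the background of the 2D signal and not for the spread between arrays. The measured mean log2 signals were 7.01 and 6.18, a log2 ratio of 0.83 (standard error 0.05), with 0.82 ± 0.13 (SD, n = 4) over the replicates and 0.89 with dyes swapped. The 2 spots of its probe differed by an SD of 0.05 to 0.25 within an array. The log2 ratio was 2.22 with a normexp offset of 0 and 3.69 with the processed signals. Krt15 and its neighbour Krt19 thus both rose, on 5 of 5 arrays each, and the third gene that passed, Krt20, lies further along the same chromosome with 50 genes between it and Krt15.

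**Figure D2:**
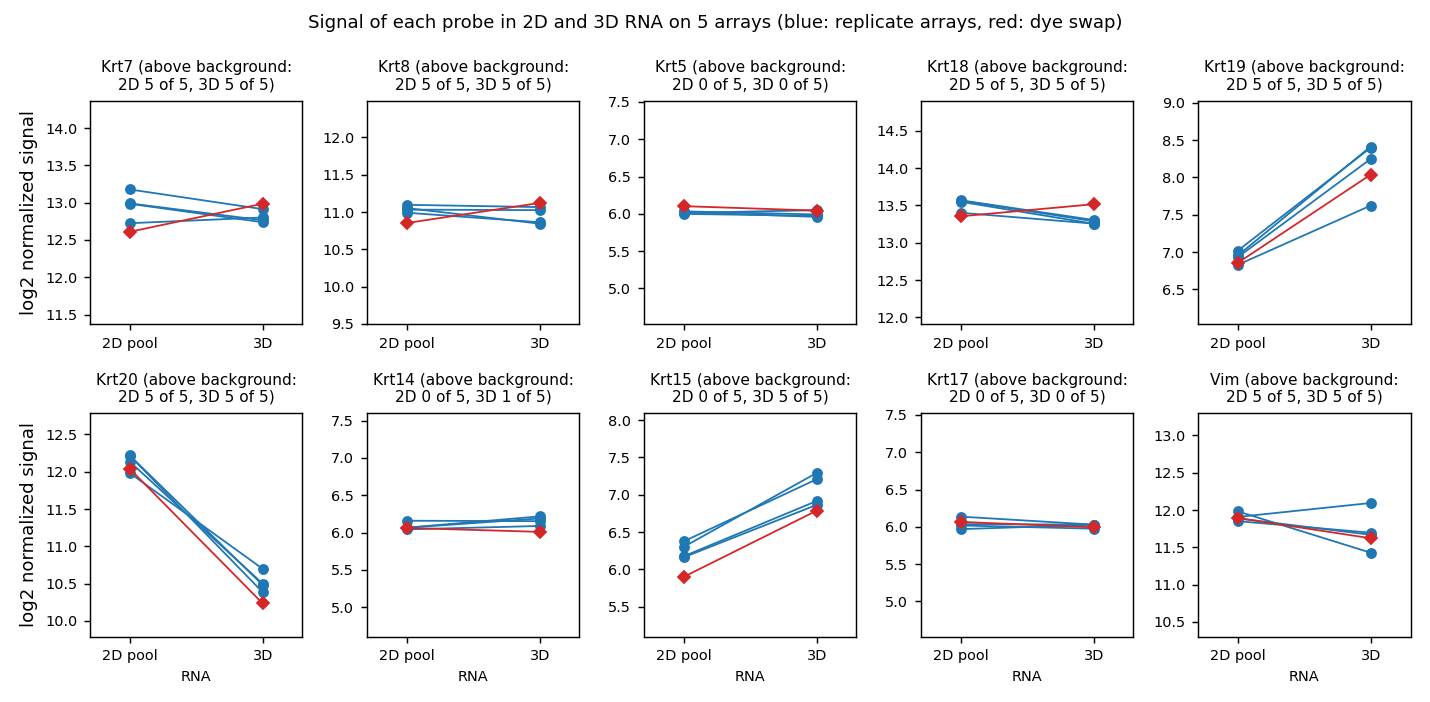
Log2 normalized signal of the probe of each gene (vertical axis) in the 2D pool and in 3D RNA, with a line joining both channels of an array. Blue circles are the 4 replicate arrays and red diamonds the swapped array, every panel spans the same range, and panel titles give the number of arrays on which the probe was well above background. The lines rise together for Krt19 and Krt15, fall together for Krt20, and cross for Krt7, Krt8, Krt18 and Vim, and levels are not comparable between panels because probes differ.

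The keratins typical of simple epithelia, Krt8, Krt18 and Krt7, were well above background in both conditions on all 5 arrays and did not pass the test. Krt8, the type II partner of Krt18, had a log2 ratio of -0.13, -0.21, -0.01 and -0.03 in replicates 1 to 4 and of 0.27 on the swapped array. Its fitted value was -0.02 with a 95% interval from -0.17 to 0.13 (limma adjusted p = 0.853). The 3D signals, from 10.84 to 11.12, spanned the 2D signals of 10.85 to 11.10.

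Krt18, at a log2 normalized signal of 13.25 to 13.52 in 3D and 13.35 to 13.57 in 2D, was lower in all 4 replicates, by 0.15, 0.29, 0.28 and 0.26 on the log2 scale, and higher by 0.16 on the swapped array. The fitted value was -0.16 with a 95% interval from -0.32 to -0.01 (limma adjusted p = 0.0985). Without the swapped array it was -0.25 and passed (limma adjusted p = 0.000939), so that 1 array decided the call. In that fit 5050 of all 15154 genes passed, and with 3D RNA always in Cy5 the dye and the condition cannot be told apart. With a term for the dye the ratio of Krt18 was -0.04 (limma adjusted p = 0.588), and with median centring in place of loess it turned to 0.30 and did not pass.

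Krt7, a type II keratin of glandular and ductal epithelia, was at 0.08 in replicate 1, at -0.23, -0.25 and -0.26 in replicates 2 to 4, and at 0.38 on the swapped array. Its log2 normalized signals of 12.74 to 12.99 in 3D lay within the 12.61 to 13.18 of the 2D pool. In the fit it was -0.06 with a 95% interval from -0.26 to 0.15 (limma adjusted p = 0.702). For Krt7, Krt8 and Krt18 the swapped array ran against the mean of the replicates, and the dye effect was -0.27, -0.18 and -0.20 (limma adjusted p = 0.0394, 0.0548 and 0.0291). None of these passed at an FDR below 0.01, which 1.9% of all genes did. With 1 swapped array the dye and any other property of that array cannot be told apart. In the reported fit, with loess and without the spread between 2D cultures, the intervals of these 3 keratins exclude a 2-fold change in either direction.

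The keratins of basal and stratified epithelia other than Krt15 were at or near background. Krt5 and Krt17 were well above background on 0 of 5 arrays in either condition, and Krt14 on 1 of 5 in 3D and 0 of 5 in 2D. Their log2 normalized signals all lay between 5.96 and 6.22, and the conditions overlapped for each. The log2 ratio of Krt5, the type II keratin of basal cells, ran from -0.06 to 0.04 over the 5 arrays, and in the fit it was -0.03 (limma adjusted p = 0.612). Krt14, its type I partner, ran from -0.05 to 0.15 with a fitted 0.05 (limma adjusted p = 0.438), and its mean log2 signals were 6.13 in 3D and 6.08 in 2D. Krt17, a keratin of skin appendages that wounding induces, ran from -0.11 to 0.06 with a fitted -0.03 (limma adjusted p = 0.6). No fold is given for these 3 genes, since a probe at background in both conditions carries no measured ratio, and a change in these genes could have been missed.

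Vim, the type III filament gene, was well above background in both conditions on all 5 arrays and did not pass the test. Its log2 normalized signal was 12.09, 11.43, 11.67 and 11.70 in 3D replicates 1 to 4 and 11.62 in the 3D pool, against 11.85 to 11.98 in the 2D pool. Replicate 1 lay above every 2D signal and the other 3D signals lay below every one, so the conditions overlapped. The log2 ratios were 0.19, -0.55, -0.22 and -0.15, a mean of -0.19 ± 0.30 (SD, n = 4), with -0.27 on the swapped array. The fitted value was -0.20 with a 95% interval from -0.40 to -0.01 (limma adjusted p = 0.112), and it was -0.30 without replicate 1 (limma adjusted p = 0.0114) and -0.11 without replicate 2 (limma adjusted p = 0.372), neither of which passed. The SD between cultures was larger than that of 98.6% of the 7586 genes well above background on all arrays in both conditions, whose median SD was 0.089. Of 8 fibroblast markers 4 were on no array above background, the decorin gene Dcn and the lumican gene Lum among them. The summed normalized signal of all 8, those at background included, was 871, 849, 738 and 736 in 3D replicates 1 to 4. It was 770 in the 3D pool and 682 to 709 in the 2D pool. Of the 8, 1 was higher and 0 were lower by limma (2 and 1 at an unadjusted p under 0.05), and 1 was higher and 2 were lower without the swapped array. Pdgfra was higher (0.55, limma adjusted p = 6.79e-06), and the collagen gene Col3a1 was at 1.09, 0.78, -0.07 and -0.10 in replicates 1 to 4. The collagen gene Col1a2 was at -0.25, -0.20, -0.17 and -0.14 in these replicates and at 0.23 on the swapped array. The part of these markers in the level of Vim was not tested.

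Replicate 1 also stood apart from the other cultures in several of the keratins. It had the smallest change of Krt19 (0.79) and of Krt20 (-1.28), the highest ratio of Vim (0.19) and the only positive ratio of Krt7 (0.08). For Vim, replicate 2 lay at the other end (-0.55). The SD between cultures of Krt19 was larger than that of 98.5% of the same 7586 genes, that of Krt20 than 96.7%, and that of Krt7 than 87.1%. By contrast Krt8 (53.2%) and Krt18 (32.1%) varied like a typical gene. Without replicate 1 the fitted log2 ratio was 1.33 for Krt19 and -1.75 for Krt20, and both still passed.

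Keratin partners of type I and type II were compared within each array, and Vim was set against Krt18, with which it does not pair. Krt7 minus Krt19 was -0.72, -1.69, -1.56 and -1.64 in replicates 1 to 4 and -0.81 on the swapped array, a mean of -1.40 ± 0.46 (SD, n = 4), so that Krt19 was raised over its partner on 5 of 5 arrays. Krt8 minus Krt18 was 0.15 ± 0.12 (SD, n = 4) over the replicates and 0.11 with dyes swapped, a small difference that kept its sign on all 5. Krt5 minus Krt14 was -0.10 ± 0.08 (SD, n = 4), but with both genes at or near background it carries no measured difference, whatever its p. The exact two-sided sign-flip permutation test gave p = 0.125 for each of these 3 pairs, which is the smallest p that 4 arrays allow (0.167 adjusted over the 4 pairs compared). Vim minus Krt18 was 0.06 ± 0.24 (SD, n = 4), with -0.43 on the swapped array, and had an exact permutation p of 0.625. With 4 arrays this test cannot reach 0.05.

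The genes whose ratios over the 5 arrays were closest to those of a member that passed are listed as a description. Closeness was the Euclidean distance between the log2 ratios of the 5 arrays. For Krt20 they were Dusp5 (distance 0.30), Havcr1 (0.36) and Dennd5a (0.41), and Dusp5 ran from -1.29 in replicate 1 to -1.74 in replicate 2. For Krt19 they were Fam171a2 (0.20), Rasl10a (0.27) and Atp1b1 (0.32), each with its smallest replicate ratio in replicate 1, as Krt19 had. The choice by distance favours such a likeness, so it is no separate result. For Krt15 they were Ces1a (0.14), Ankrd22 (0.15) and Bace2 (0.15).

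Most other keratins were not detected. Of 18 further type I keratins measured, 0 were well above background on at least 3 arrays and 0 passed by limma, also at an unadjusted p under 0.05. Krt23 and Krt13 were among those above background on no array. Of 13 further type II keratins, 2 were detected on at least 3 arrays, and Krt80, a keratin of differentiating epithelia, was the 1 that passed and fell by 0.47 (limma adjusted p = 2.34e-05), with a ratio from -0.52 to -0.33 over the 5 arrays. With the members, 40 keratins were measured, 8 were detected on at least 3 arrays and 4 passed, 2 higher and 2 lower, while 46.6% of the 8373 genes detected in this way passed.

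Among filament genes that are not keratins, 4 of 13 passed, against 25.9% of all genes, with a median log2 ratio of -0.04. Synm, which encodes synemin, a partner of vimentin and desmin, rose by 1.00 (limma adjusted p = 3.43e-06), and the neurofilament gene Nefh by 0.25 (limma adjusted p = 7e-04). The nuclear lamin genes Lmnb1 and Lmna fell by 0.47 and 0.36 on the log2 scale (limma adjusted p = 0.000192 and 0.000216). Of 10 genes that link or regulate these filaments, 4 rose and 0 fell by limma (6 and 1 at an unadjusted p under 0.05), with a median of 0.15. Of the 9 linkers detected on at least 3 arrays 4 passed, near the 46.6% of all genes detected in this way. Ppl, which encodes the keratin linker periplakin, rose by 1.28 (limma adjusted p = 1.09e-07) and ran from 1.16 to 1.41 over the 5 arrays. The desmosomal plakophilin gene Pkp2 rose by 0.82 (limma adjusted p = 1.78e-06), and the cytolinker genes Plec and Evpl rose by 0.40 and 0.30, although Evpl was at -0.01 on the swapped array.

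**Figure D3:**
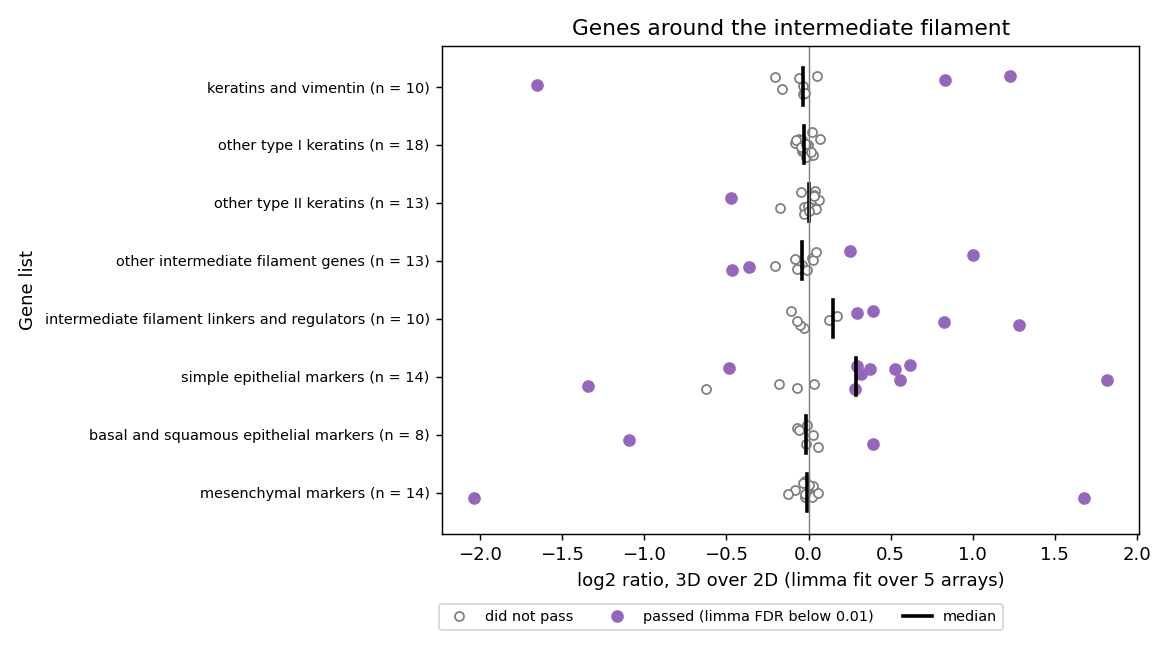
Fitted log2 ratio of 3D over 2D (horizontal axis) of each measured gene in 8 lists around the intermediate filament. Filled points passed the test at a limma FDR below 0.01, open points did not, and black bars are medians. Points lie close to 0 for the other type I keratins, while among linkers and regulators every gene that passed lies above 0.

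Markers of epithelial and mesenchymal cells set the members in context. Of 14 simple epithelial markers 8 rose and 2 fell, with a median of 0.29. All 14 were detected on at least 3 arrays, and 46.6% of all genes detected in this way passed. The transcription factor genes Elf3 (1.82, limma adjusted p = 3.87e-07) and Grhl2 (0.62) rose most, and the claudin genes Cldn3 and Cldn4 fell by 1.34 and 0.48. Of 14 mesenchymal markers measured beside Vim, 11 were above background on no array, S100a4 rose by 1.68 (limma adjusted p = 2.42e-07) and the fibronectin gene Fn1 fell by 2.04 (limma adjusted p = 4.48e-06), with -1.28 in replicate 1 and -2.43 to -2.13 in the others. Of 8 basal and squamous markers 1 rose and 1 fell, with a median of -0.01. The 1 that fell was the transglutaminase gene Tgm1, by 1.09 (limma adjusted p = 4.55e-05). Among 13 thyroid markers, 8 of them above background on no array, Pax8 and Duox2 rose, by 0.71 and 0.68. On the swapped array Pax8 was at 0.05 and Duox2 at 1.06. Of 8 leukocyte markers Lyz2 passed, at -0.20 (limma adjusted p = 0.0093), which it did not when any 1 replicate was left out, with its probe above background on 1 of 5 arrays in 3D and 2 of 5 in 2D, and of 6 endothelial markers Esam fell by 0.48.

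**Figure D4:**
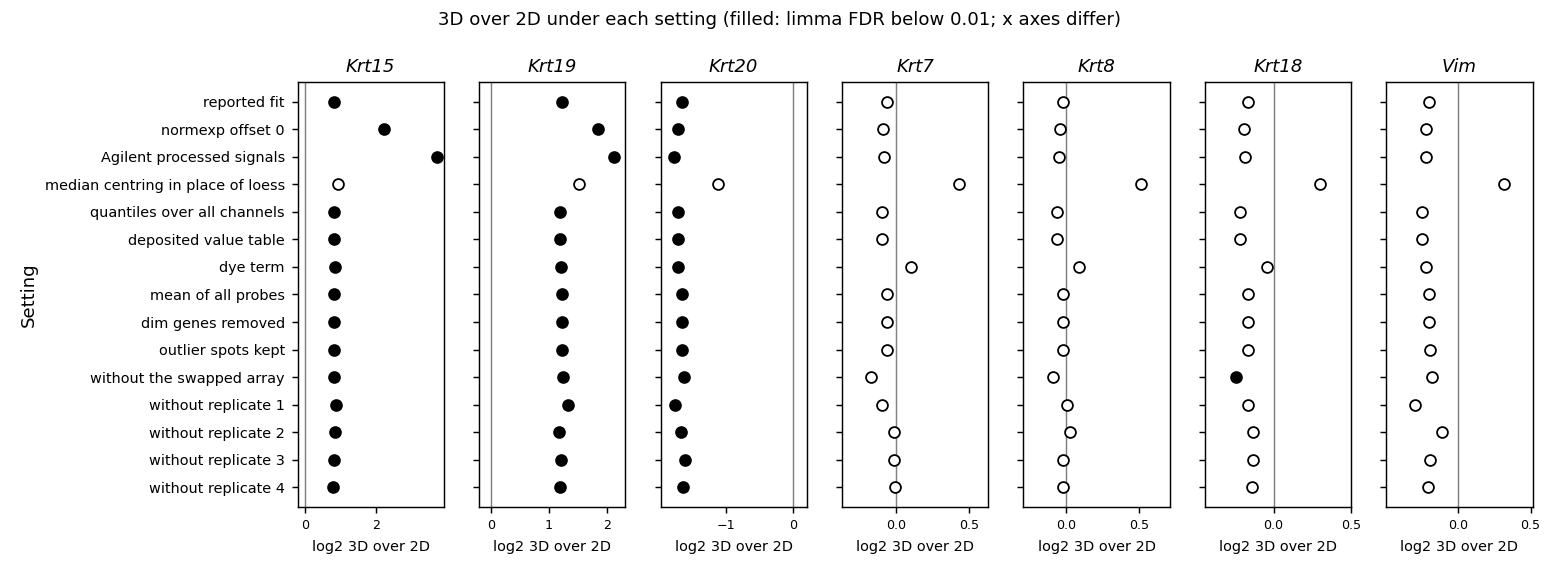
Log2 ratio of 3D over 2D (horizontal axes, which differ between panels) of 7 members in the reported fit and under 14 other settings (rows). Filled points passed at a limma FDR below 0.01. Krt15, Krt19 and Krt20 passed in 13 of 14 settings, and median centring in place of loess moved Krt7, Krt8, Krt18 and Vim to positive values that did not pass.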

How the data were processed

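RNA of FRT cells was hybridized to 5 Agilent 2-colour rat arrays on 1 slide. The authors deposited spot intensities, as median spot and background pixel values read by Agilent Feature Extraction 10.7.3.1 per the file headers, not normalized. The processed intensities deposited beside them were background-subtracted and dye-normalized by that software. The value table the authors deposited holds log2 ratios made with normexp, loess and quantiles per their methods, with column medians from -0.0064 to 0.0011. All 5 columns ran 3D over 2D when set against the ratios normalized here, as described below (r from 0.995 to 0.998). Against the ratios of the processed intensities r was 0.739 to 0.777. Build rn4 is that of the array design.

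From the median signals, background was corrected in R 4.3.3 with limma 3.58.1 by normexp (offset 50), ratios by loess with control spots at weight 0, and average intensities by Aquantile. Control spots and spots with outlier flags (1.12% to 1.6% per array) were left out, 0 spots were saturated, and repeated spots were averaged per probe. Such an offset compresses the ratios of dim genes. Each gene took the value of its brightest probe, named through RefSeq accessions of GRCr8, which named 17998 of 30367 probes (59.3%). A probe counted as well above background on an array where at least 0.5 of its spots were. The bound for a gene below background in 2D set its mean 3D signal against the higher of its own 2D signal and the lowest signal above background on each array.

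Ratios were tested against 0 over 5 arrays in limma with Benjamini-Hochberg adjustment over all genes (prior degrees of freedom 5.12), the swapped array with its sign turned. The fit was tested on simulated data with independent arrays and far fewer changed genes than passed here. That simulation held neither a shared 2D pool nor a swapped array of the same cultures, so it gives no error rate for this design. The members, lists and tests were chosen with earlier results of these data known. Named genes are the members, at most 2 that rose and 2 that fell most in each of 11 lists (among those that passed and moved the same way on all arrays, or, if none passed, the 2 that moved most), and the 3 closest genes to each member changed at least 1.5-fold. Others (Plec, Evpl, Dcn, Lum, Col3a1, Col1a2, Epcam, Cdh1, Cdh16 and Tg) were chosen after their values were seen. A gene that the rule names is not reported here. Probe sequences were not used here, so cross-hybridization between keratins was not examined. The number of arrays limits the precision.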

Additional observations from a re-analysis of the deposited data

Results flagged for a closer look

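Krt7 in replicate 1 had a log2 ratio of 0.077, against -0.23 to -0.26 in the other replicates, and was far from them by Dixon's test. Of the 10 members tested in this way 1 stood out, and chance flags about 1 in 20 groups.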

How the results depend on the processing

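The calls of Krt15, Krt19 and Krt20 kept their direction under all 14 alternatives and passed in all but median centring in place of loess. In that setting 7 of all genes passed, 12713 genes had a dye effect, 0 members passed, by gene or by probe, and the limma adjusted p was 0.0237 for Krt15 and Krt19 and 0.131 for Krt20. There the log2 ratio turned to 0.43 for Krt7, 0.51 for Krt8, 0.30 for Krt18, -0.10 for Krt14 and 0.31 for Vim, none of which passed. With a term for the dye Krt7 turned to 0.11 and Krt8 to 0.088. Leaving out each replicate in turn, Krt8 ran from -0.025 to 0.026, turning positive without replicate 1 (0.0056) or replicate 2 (0.026). Over all genes 3918 passed, and 2222 with a normexp offset of 0. The share of calls that were higher in 3D was 55.6%, and 49.2% in the deposited value table. The difference Krt5 minus Krt14 was -0.49 with an offset of 0 and -0.35 with the processed signals, and Krt7 minus Krt19 was -2.08 and -2.37. The cause was not tested, except that the offset compresses ratios of dim probes by construction. Krt5, Krt14 and Krt17 were removed with dim genes and gave no value there. Of the counts of genes that passed in the 11 lists, 20 over all alternatives moved by more than 1.5 times and 134 did not. The leukocyte count fell to 0 in 8 of 14, and the thyroid count to 0 with an offset of 0 or median centring. The linkers that passed numbered 3 when any 1 replicate was left out. Signal over background limits Krt5, Krt14, Krt15 and Krt17, and the dim 2D signal limits the size of the change of Krt19. No paired analysis was possible because the 2D cultures were pooled and carry no replicate number.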
